A study of Fragaria hybrid cultivar with 9 samples.

Results

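The copper miRNAs of plants are the families miR397, miR398, miR408 and miR857. All miRNAs of the table whose name carries one of these numbers, with no further digit behind it, were taken as members, and a sequence listed under several names was counted once. This gave 25 distinct sequences of the 1660 in the table, with 8 of miR397, 11 of miR398 and 6 of miR408. No name belonged to miR857, which was not analysed here.

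Petals came from 'Sijihong', a pink-flowered strawberry bred by crossing Fragaria with Potentilla and grown in the open ground, with no treatment applied. They were taken at 3 stages of increasing color: young bud (PF_L), the beginning of coloration (PF_Z) and big bud (PF_D). Each stage had 3 biological replicates and each replicate gave 1 small RNA library, so 9 libraries were compared. The sources do not say which plants went into which replicate, and the p-values measure the spread between these libraries. The table holds small RNAs only, so the petal label was not checked against protein-coding markers.

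In Arabidopsis these families belong to the copper economy of the cell. When copper is short, the transcription factor SPL7 switches on their genes, and the miRNAs cut the mRNAs of copper proteins that the plant can spare, which leaves copper for plastocyanin in the chloroplast. There, miR398 acts on the Cu/Zn superoxide dismutases and their copper chaperone, miR397 and miR857 on laccases, the copper oxidases that help to polymerize lignin, and miR408 on laccases and on plantacyanin, a small blue copper protein. Because these targets come from Arabidopsis, they are given as background and were not measured in these libraries. A miRNA is cut from a hairpin as a pair of strands. The strand known to guide the silencing complex to these targets is called the guide strand here, and its partner the opposite strand. The question of the comparison was whether the families moved together over the 3 stages.

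The sequences that carried most of the reads or changed between stages are shown so that the strands can be told apart, written 5′ to 3′ as DNA as in the table. Capitals mark the seed, bases 2 to 8, which starts the pairing with a target. The names give the nearest database miRNA (ppe for peach, mdm for apple, csi for sweet orange, mes for cassava, stu for potato) and how the read differs from it: L and R stand for a longer or shorter 5′ or 3′ end, and ss for substituted bases.
The guide strand of miR397, with its main form first and a form shifted by 2 bases below it:
ppe-miR397: tCATTGAGtgcagcgttgatg
ppe-miR397_L-2R+2: aTTGAGTGcagcgttgatgaa
The opposite strand of miR397, listed as a pair of overlapping sequences:
mdm-MIR397b-p3_1: cATCAACGctgcacccaatta
mdm-MIR397b-p3_2: tTCATCAAcgctgcacccaat
Guide strands of miR398, these 3 with the seed GTGTTCT:
mdm-miR398b_1ss1TC: cGTGTTCTcaggtcgcccctg
mdm-miR398a: tGTGTTCTcaggtcacccctt
ppe-miR398b_2ss10AC20TG: cGTGTTCTccggtcgccccgg
The opposite strand of miR398:
ppe-miR398a-5p_2ss3AT12GA: gGTGCGACctgagatcacatg
ppe-miR398a-5p_2ss12GA15TC: gGAGCGACctgagaccacatg
csi-MIR398a-p5_2ss11CT20GC: aGGAGTGAacttgagaacacag
The guide strand and the opposite strand of miR408:
mdm-miR408a_L-1R+1: tGCACTGCctcttccctggct
mdm-miR408b_L-1R+1_1ss8AC: cAGGGACGaggtagagcatgg

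The strands were placed by sequence and not by level. Read as reverse complements, ppe-miR397 and mdm-MIR397b-p3_1 matched over 21 bases with 2 mismatches. In the same way mdm-miR398b_1ss1TC and ppe-miR398a-5p_2ss3AT12GA matched over 19 bases with 3 mismatches, and mdm-miR408a_L-1R+1 and mdm-miR408b_L-1R+1_1ss8AC over 18 bases with 3 mismatches. mdm-miR398a and mdm-miR398b_1ss1TC each matched ppe-miR398a-5p_2ss3AT12GA and ppe-miR398a-5p_2ss12GA15TC equally well, with 3 mismatches over 19 bases. The scarcer guide ppe-miR398a-3p_1ss20TG matched both with 2 mismatches over 19 bases. Partners within miR398 could thus not be told from the sequences. The closest match of csi-MIR398a-p5_2ss11CT20GC was mdm-miR398a, but with 6 mismatches over 21 bases. mdm-miR398a and mdm-miR398b_1ss1TC themselves differed at 3 of 21 bases, all outside the seed. Of the 25 sequences, 14 were placed on the guide strand and 8 on the opposite strand, and 3 remained unplaced. The unplaced ones carry a family name but lie near neither strand, and they were scarce. The seeds of ppe-miR397, mdm-miR398b_1ss1TC and mdm-miR408b_L-1R+1_1ss8AC, the most abundant sequences of their families, occurred in 0 sequences outside the copper families. For miR408 this is the opposite strand, and the seed of its guide strand was not looked up.

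The values are the authors' normalized reads. Dividing them by the value of 1 read, which was 0.713 to 1.27 over the libraries, gave 1009166 to 1703805 reads per library, counting a sequence once for each line that lists it. With 3 reads as the floor, a sequence at 0 in a library could have stood at up to 2.14 to 3.82 normalized reads. The copper families together made up 0.977% to 1.95% of the normalized reads of the distinct sequences in the table, library by library. Their share was 1.89% ± 0.0756 (SD, n = 3) in PF_L, 1.48% ± 0.144 in PF_Z and 1.23% ± 0.378 in PF_D. The base is the listed miRNA sequences and not all reads of a library. Of the 25 sequences, 16 had a mean of at least 5 normalized reads over the 9 libraries. The other 9 never passed 9.07 normalized reads, or 11 reads, in any library. 23 sequences were above 0 in at least 3 libraries and were tested.

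Of the copper families, miR397 rose from young to big bud and the totals of miR398 and miR408 did not pass the test. The total of miR397 was 1098, 1077 and 1019 normalized reads in the PF_L libraries, 1202, 1776 and 1364 in PF_Z, and 2236, 1977 and 1640.3 in PF_D. Every PF_D library and every PF_Z library lay above all PF_L libraries, while PF_Z and PF_D overlapped. In whole petals, a change in the number of cells of a type and a change in RNA per cell cannot be told apart. Big bud stood 0.86 above young bud on the log2 scale (SE 0.22, adjusted p = 0.0123, limma). It was 0.42 from PF_L to PF_Z (adjusted p = 0.274) and 0.44 from PF_Z to PF_D (adjusted p = 0.304). Over all families tested, 42 of 139 or 30.2% were called between PF_L and PF_D, 18.7% as higher and 11.5% as lower in PF_D, so a call in this comparison was common. The F test over the 3 stages gave an adjusted p of 0.0382 for miR397, where 25.2% of the families were called. Without PF_L replicate 3 the adjusted p from PF_L to PF_D was 0.0656, with a log2 fold change of 0.83.

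miR398 was the most abundant copper family and stood 11th of all families by mean. Its total was 12445, 11886 and 14860.4 normalized reads in PF_L, 15752, 9052 and 7423 in PF_Z, and 14394, 8744 and 8971 in PF_D. The first library of PF_Z and that of PF_D were as high as the PF_L libraries, and the others were lower, so the stages overlapped. Its log2 fold change was -0.35 from PF_L to PF_Z (SE 0.29, adjusted p = 0.524) and -0.32 from PF_L to PF_D (SE 0.29, adjusted p = 0.455, limma).

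miR408 totalled 4286, 3012 and 3892 normalized reads in PF_L, 2683, 2274 and 1878 in PF_Z, and 3759.8, 2263 and 1995 in PF_D. All PF_Z libraries lay below all PF_L libraries, while PF_D replicate 1 reached into the range of PF_L. On the log2 scale it changed by -0.71 from PF_L to PF_Z (SE 0.27, adjusted p = 0.132) and -0.52 from PF_L to PF_D (SE 0.27, adjusted p = 0.183, limma). Without PF_D replicate 1 the latter was -0.80 with an adjusted p of 0.0351. Between PF_L and PF_Z, 10.1% of the families were called, and between PF_Z and PF_D 7.19%. 0 copper families were called in either comparison by limma, edgeR or DESeq2, and by limma only miR408 from PF_L to PF_Z had an unadjusted p under 0.05 there.

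The direction of a total depended on how the libraries were scaled. From PF_L to PF_D the median log2 fold change of the 501 sequences with a mean of at least 5 was -0.16 as deposited, -0.53 with equal library totals and 0.42 per valid read of the library. Relative to that median, the total of miR397 changed by 1.02 as deposited, 0.98 with equal totals and 1.04 per valid read on the log2 scale. The total of miR398 changed by -0.16, -0.20 and -0.14 relative to the same medians, and miR408 by -0.37, -0.40 and -0.34. Taken by itself, the total of miR397 was higher under each scaling, though with equal totals its log2 fold change was 0.45 (adjusted p = 0.273). The totals of miR398 and miR408 were lower as deposited and flipped to 0.28 and 0.08 per valid read (adjusted p = 0.634 and 0.889). With equal totals both were called lower, miR398 at -0.73 (adjusted p = 0.0234) and miR408 at -0.94 (adjusted p = 0.0158).

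**Figure D1:**
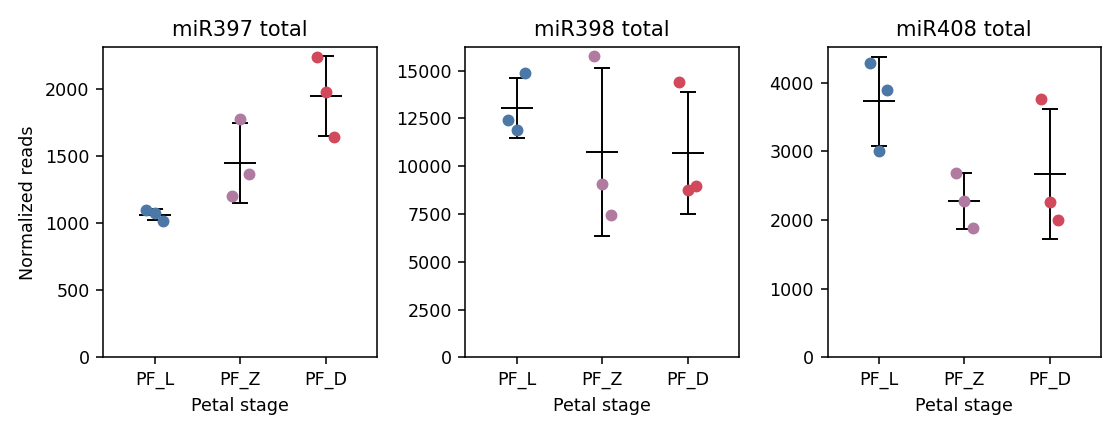
Total normalized reads of the copper families miR397, miR398 and miR408 (y axes, each from 0) at the petal stages PF_L, PF_Z and PF_D (x axis). Points are the 3 libraries of a stage in replicate order, and bars give the mean and SD. The miR397 total ran from 1019 to 1098 in PF_L and from 1640.3 to 2236 in PF_D, whereas the stages of miR398 overlapped.

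A ratio of family totals within 1 library does not depend on the scaling, so it tests directly whether families moved together. miR397 over miR408 was 0.256, 0.357 and 0.262 in the PF_L libraries, 0.448, 0.781 and 0.726 in PF_Z, and 0.595, 0.874 and 0.822 in PF_D. Every PF_Z and PF_D library lay above all PF_L libraries. The mean log2 ratio was higher than in PF_L by 1.13 in PF_Z and by 1.38 in PF_D, and the exact permutation test over the 3 stages gave p = 0.0179, or 0.0536 adjusted over the 3 pairs of families. It thus missed the threshold after adjustment. Without PF_D replicate 1 the difference was 1.55 with an adjusted exact p of 0.0321.

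miR397 over miR398 was 0.0882, 0.0906 and 0.0685 in PF_L, 0.0763, 0.196 and 0.184 in PF_Z, and 0.155, 0.226 and 0.183 in PF_D. All PF_D libraries were above PF_L, while the first PF_Z library lay among those of PF_L. The difference of the log2 ratio between PF_D and PF_L was 1.18 (exact permutation p = 0.107, adjusted p = 0.161). miR398 over miR408 ran from 2.90 to 3.95 among PF_L libraries, from 3.95 to 5.87 among PF_Z and from 3.83 to 4.50 among PF_D, with a difference of the log2 ratio of 0.20 between PF_D and PF_L (exact permutation p = 0.264, adjusted p = 0.264). These tests were two-sided over 1680 arrangements of the labels, and the smallest p they can give is 0.00357. In both ratios with miR397 every PF_D library lay above every PF_L library, but none of the 3 ratios passed the test after adjustment.

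**Figure D2:**
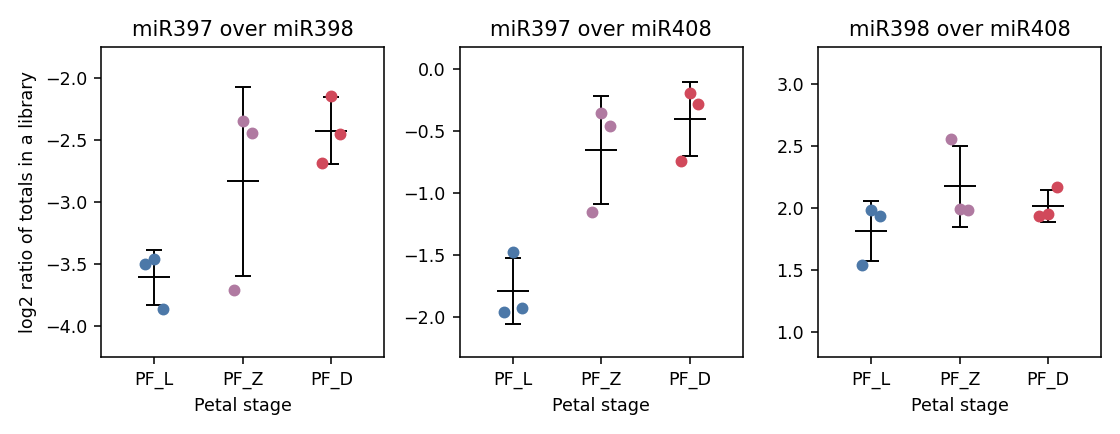
Log2 ratio of the totals of each pair of copper families within a library (y axes, each spanning the same range) by petal stage (x axis). Points are the libraries in replicate order with the mean and SD of a stage. The ratio of miR397 over miR408 was -1.96 to -1.48 in PF_L and -0.75 to -0.19 in PF_D, whereas miR398 over miR408 was 1.54 to 1.98 and 1.94 to 2.17.

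Among single sequences, the strand that held most calls changed with the scaling. Between PF_L and PF_D, 6 of the 23 tested members were called, 5 higher and 1 lower in big bud, which is 26.1%. The background in this comparison was 15.8% of all 1511 sequences tested, 7.48% higher and 8.27% lower. All 6 were among the 16 with a mean of at least 5, and of the 501 sequences of the whole table at that level 32.5% were called, so the share of called members stood near that of other sequences as abundant as they were. The median log2 fold change of the 23 members was -0.35, beside -0.30 over all sequences. On the guide strand 2 of 13 tested sequences were called, 1 higher and 1 lower, and on the opposite strand 4 of 7, all higher. A pair of those 4 was a single measurement, as given below. With equal library totals 6 members were called and all were lower, 5 of them guide strands and 1 an opposite strand. Per valid read 6 were called and all were higher, 2 of them guide strands and 4 opposite strands. The share of all sequences called under these other scalings is not given here, so these counts stand without a background and are not read as a result about the members. By the same scalings the share of calls that were higher, over all sequences with a mean of at least 5, was 57.7% as deposited, 36.5% with equal totals and 88.1% per valid read. Without PF_L replicate 3 the number called was 2, and without PF_D replicate 1 it was 3.

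**Figure D3:**
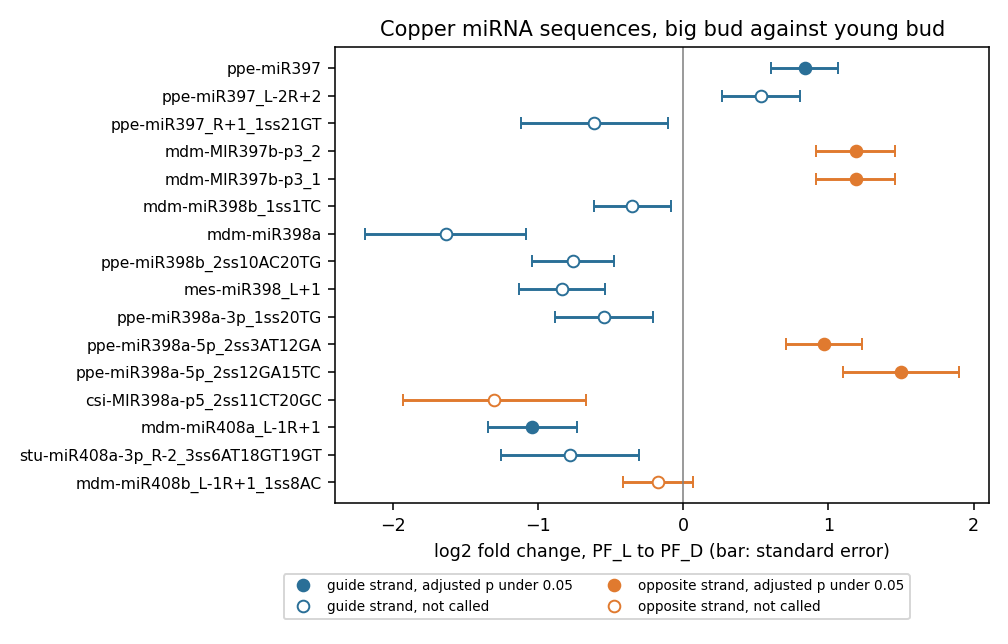
Log2 fold change from PF_L to PF_D (x axis) of the 16 copper miRNA sequences with a mean of at least 5 normalized reads (y axis), with the standard error of limma as the bar. Filled points have an adjusted p under 0.05, and color gives the strand. On the guide strand, 8 of 10 points lie below 0, and on the opposite strand 4 of 6 lie above 0, as the libraries were scaled by the authors. Among those 4, mdm-MIR397b-p3_1 and mdm-MIR397b-p3_2 are a single measurement. The median of all 501 sequences with a mean of at least 5 was -0.16.

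The guide strand of miR397 was carried by ppe-miR397, which made up 63.4% to 71.0% of the family total. It stood at 752, 744 and 665 normalized reads in PF_L, 795, 1223 and 968 in PF_Z, and 1545, 1253 and 1100.5 in PF_D. No PF_D or PF_Z library reached down to PF_L. Its log2 fold change to PF_D was 0.84 (SE 0.23, adjusted p = 0.0209, limma). The call was lost when PF_L replicate 1 or 3 or PF_D replicate 1 or 2 was left out, with adjusted p values of 0.0602, 0.0944, 0.0800 and 0.0515. With equal library totals its log2 fold change was 0.42 (adjusted p = 0.279). The shifted form ppe-miR397_L-2R+2, whose seed differs, lay within 150.0 to 157 normalized reads for PF_L, 139.7 to 254 for PF_Z and 185 to 258 for PF_D, and its log2 fold change of 0.53 was not called (adjusted p = 0.187) except per valid read (1.13, adjusted p = 0.0127). The main form outnumbered it 4.43 to 5.02 times in PF_L and 5.55 to 5.99 times in PF_D. A scarce form that is longer at the 3′ end, ppe-miR397_R+1_1ss21GT, stood at 2.82 to 20.1 normalized reads over all libraries (log2 fold change -0.61, adjusted p = 0.425).

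The opposite strand of miR397 gave the call from PF_L to PF_D that held when any library was left out. mdm-MIR397b-p3_1 stood at 93.9, 83.8 and 95.7 normalized reads in PF_L, 130.4, 139 and 85.0 in PF_Z, and 213, 247 and 173 in PF_D. Every PF_D library lay above every library of the other stages, and PF_Z overlapped with PF_L. Big bud exceeded young bud by 1.19 on the log2 scale (SE 0.27, adjusted p = 0.00660, limma), with adjusted p values of 0.00310 to 0.0356 when single libraries were left out. From PF_Z to PF_D it was 0.85 (adjusted p = 0.0988). With equal library totals the same change was 0.78 (adjusted p = 0.0685). mdm-MIR397b-p3_2 overlaps it by 19 bases without a mismatch and has the same value in all 9 libraries, so the pair was read as 1 measurement.

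Within miR398 a pair of opposite-strand sequences rose as deposited, whereas the main guide sequence did not pass the test. mdm-miR398b_1ss1TC, the most abundant copper sequence, was at 9326, 7746 and 9052 normalized reads in PF_L, 8986, 4891 and 4877 in PF_Z, and 8986, 5909.5 and 5955 in PF_D. The first libraries of PF_Z and PF_D stood with PF_L and the others stood lower, as for the family total. Its change from PF_L to PF_D was -0.35 on the log2 scale (SE 0.26, adjusted p = 0.385, limma), and it flipped to 0.25 per valid read. With equal library totals it was called lower, at -0.76 (adjusted p = 0.0191). ppe-miR398a-5p_2ss3AT12GA, of the opposite strand, was at 1419, 1091 and 898 normalized reads in PF_L. It was at 1873, 1765 and 1603 in PF_Z, and at 3272, 1789.7 and 1782 in PF_D. No PF_Z or PF_D library came down to PF_L. This opposite-strand sequence rose by 0.97 on the log2 scale in PF_D (SE 0.26, adjusted p = 0.0192, limma). Without PF_L replicate 3 or PF_D replicate 1 the adjusted p was 0.0982 and 0.0880, and with equal library totals the log2 fold change was 0.56 (adjusted p = 0.161).

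The other opposite strand of this type, ppe-miR398a-5p_2ss12GA15TC, was at 233, 148 and 102 normalized reads in PF_L, 353, 629 and 269.7 in PF_Z, and 818, 258 and 384 in PF_D. All later libraries again lay above PF_L. In PF_D it was higher than in PF_L by 1.5 on the log2 scale (SE 0.40, adjusted p = 0.0182, limma). It lost the call without PF_L replicate 3 or PF_D replicate 1, with adjusted p values of 0.0876 and 0.0828, and with equal library totals (log2 fold change 1.09, adjusted p = 0.0737). Within a library, mdm-miR398b_1ss1TC outnumbered ppe-miR398a-5p_2ss3AT12GA by 6.57 to 10.1 times at PF_L, 2.77 to 4.80 times at PF_Z and 2.75 to 3.34 times at PF_D.

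mdm-miR398a set the libraries of a stage apart. It stood at 1095, 2318 and 4174 normalized reads in PF_L, at 4107, 1588 and 507 in PF_Z, and at 998, 543 and 650.2 in PF_D. The libraries of PF_L and PF_Z thus spread over several-fold ranges that overlapped, and all PF_D libraries lay below those of PF_L. Its log2 fold change in PF_D was -1.64 (SE 0.56, adjusted p = 0.0553, limma). Without PF_L replicate 1 it was -2.14 (adjusted p = 0.0271), and without PF_Z replicate 1, 2 or 3, which are not in the contrast but enter the shared spread, the adjusted p was 0.0121, 0.0451 and 0.00623. Without PF_L replicate 3 it was -1.17 (adjusted p = 0.203), and without PF_D replicate 2 or 3 the adjusted p was 0.140 and 0.146. edgeR on recovered reads called it (log2 fold change -1.84, adjusted p = 0.00103), while DESeq2 did not (-1.83, adjusted p = 0.0753). With equal library totals it was called at -2.05 (adjusted p = 0.00570), and per valid read it was -1.04 (adjusted p = 0.296). csi-MIR398a-p5_2ss11CT20GC, the opposite strand that matched mdm-miR398a best among the guide strands, stood at 108, 361 and 376 normalized reads in PF_L, 271, 56.6 and 25.2 in PF_Z, and 147, 102 and 65.0 in PF_D. Its high libraries in PF_L and PF_Z included those where mdm-miR398a was highest. From PF_L to PF_D its log2 fold change was -1.30 (SE 0.63, adjusted p = 0.170), and the call was gained without PF_Z replicate 1 (adjusted p = 0.0451), with edgeR (-1.49, adjusted p = 0.0228) and with equal library totals (-1.71, adjusted p = 0.0406). mdm-miR398b_1ss1TC outnumbered mdm-miR398a by 2.17 to 8.52 times in PF_L, 2.19 to 9.62 times in PF_Z and 9.01 to 10.9 times in PF_D. What set these libraries apart was not tested.

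**Figure D4:**
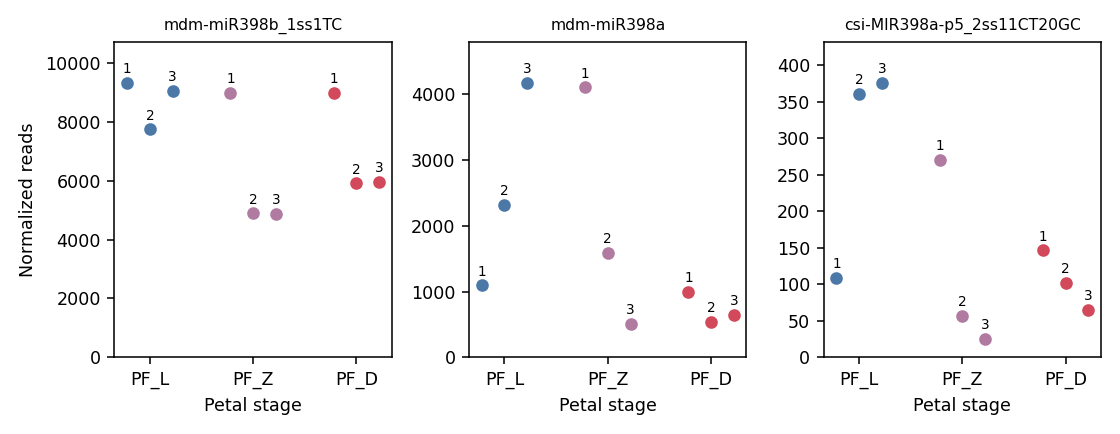
Normalized reads (y axes, each from 0) of mdm-miR398b_1ss1TC, mdm-miR398a and csi-MIR398a-p5_2ss11CT20GC in each library by petal stage (x axis). The digit above a point is its replicate number. mdm-miR398a ran from 507 to 4107 within PF_Z and from 1095 to 4174 within PF_L, but from 543 to 998 within PF_D.

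The remaining guide sequences of miR398 with a mean of at least 5 were scarcer and were lower in PF_D as deposited, without a call. ppe-miR398b_2ss10AC20TG lay within 119 to 161 normalized reads for PF_L, 56.3 to 88.1 for PF_Z and 68.1 to 102 for PF_D, with no overlap between PF_L and the later stages (log2 fold change -0.76 to PF_D, adjusted p = 0.0778, limma). mes-miR398_L+1, shifted by 1 base at the 5′ end, was 72.9 to 78.4, 36.0 to 51.3 and 31.9 to 50.03 (log2 fold change -0.83, adjusted p = 0.0644). ppe-miR398a-3p_1ss20TG was 22.6 to 26.02, 15.8 to 20.4 and 14.1 to 20.6 (log2 fold change -0.54, adjusted p = 0.291, flipping to 0.02 per valid read). Tested over the 501 sequences with a mean of at least 5 alone, ppe-miR398b_2ss10AC20TG, mes-miR398_L+1 and mdm-miR398a had adjusted p values of 0.0423, 0.0306 and 0.0419. With equal library totals ppe-miR398b_2ss10AC20TG and mes-miR398_L+1 were called as well, at -1.17 (adjusted p = 0.0125) and -1.24 (adjusted p = 0.0149).

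In miR408 the guide strand fell while its more abundant partner did not pass the test. mdm-miR408a_L-1R+1 was at 1955, 1340.4 and 1982 normalized reads in PF_L, 1269.7, 922 and 689 in PF_Z, and 1384, 686 and 629.9 in PF_D. All PF_Z libraries lay below PF_L, and PF_D replicate 1 stood just above the lowest PF_L library. It fell by 1.04 on the log2 scale from PF_L to PF_D (SE 0.31, adjusted p = 0.0290, limma). This call was lost without PF_L replicate 1 or 3 or PF_D replicate 2 or 3, with adjusted p values of 0.106, 0.103, 0.0990 and 0.135, and per valid read, with a log2 fold change of -0.44 (adjusted p = 0.446). The shortened stu-miR408a-3p_R-2_3ss6AT18GT19GT, with the same seed, held 13.1 to 27.2 normalized reads at PF_L, 10.1 to 25.05 at PF_Z and 6.39 to 20.4 at PF_D (log2 fold change -0.78, adjusted p = 0.282). mdm-miR408b_L-1R+1_1ss8AC was at 2306, 1656 and 1871 normalized reads in PF_L, 1381, 1325 and 1179 in PF_Z, and 2352, 1569.6 and 1354 in PF_D. Its PF_Z libraries were the lower ones, and PF_D overlapped with both other stages. Its log2 fold change against PF_L was -0.17 in PF_D (SE 0.24, adjusted p = 0.660), and it flipped to 0.43 per valid read.

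The balance of the strand totals, which no scaling changes, leaned to the opposite strand in big bud in all 3 families. Given as opposite over guide strand, it was 0.102 to 0.165 in the PF_L libraries of miR398, 0.188 to 0.371 in PF_Z and 0.326 to 0.417 in PF_D. For miR408 it was 0.932 to 1.22, 1.07 to 1.69 and 1.68 to 2.27. For miR397 it was 0.184 to 0.231, 0.142 to 0.277 and 0.235 to 0.333. In each family every PF_D library lay above every PF_L library, with PF_Z between or across them. The opposite strand thus took 12.3% ± 2.64 (SD, n = 3) of the miR398 total in PF_L and 26.3% ± 2.72 in PF_D, and 52.3% ± 3.69 and 66.6% ± 3.58 of the miR408 total. In miR397 it took 17.2% ± 1.61 and 21.7% ± 3.03, where the overlapping pair is counted as listed. Not every sequence of miR398 followed its total. mdm-miR398a outnumbered csi-MIR398a-p5_2ss11CT20GC by 6.42 to 11.1 times in PF_L, 15.2 to 28.0 times in PF_Z and 5.34 to 10 times in PF_D. PF_L and PF_D overlapped there, and PF_Z lay toward the guide strand. These shares and ratios are a description. Whether other families shift in the same way was not tested.

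**Figure D5:**
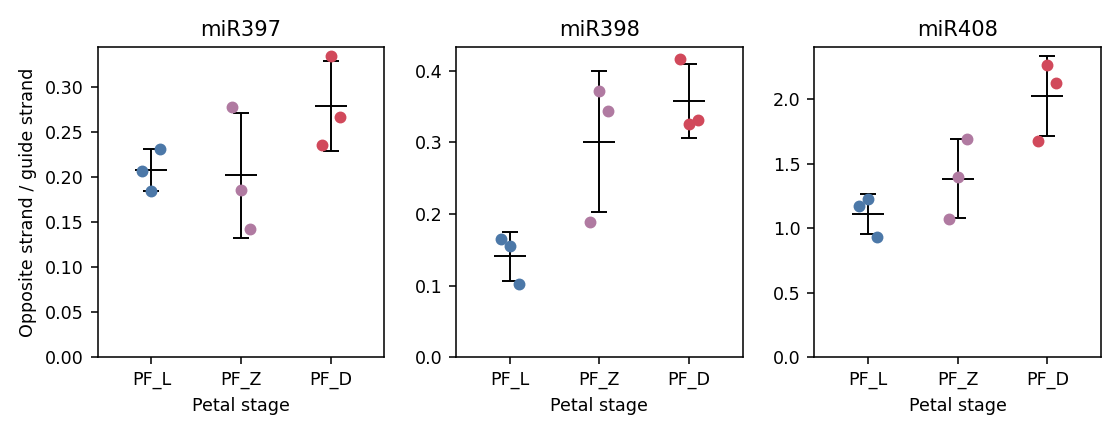
Ratio of the opposite strand to the guide strand within a library (y axes, each from 0) for miR397, miR398 and miR408 by petal stage (x axis). Points are the libraries in replicate order with the mean and SD of a stage. In PF_D the ratio was 0.235 to 0.333, 0.326 to 0.417 and 1.68 to 2.27, above all PF_L libraries in each family.

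Between PF_L and PF_Z, and between PF_Z and PF_D, 0 of the 23 tested members were called by limma, where 1.13% and 3.11% of all sequences were. At an unadjusted p under 0.05 there were 7 and 2 members, beside 204 and 288 of the 1511 sequences. edgeR on recovered reads called 1 member in each comparison, ppe-miR398a-5p_2ss12GA15TC from PF_L to PF_Z and mdm-miR398a from PF_Z to PF_D. DESeq2 called ppe-miR398a-5p_2ss12GA15TC and ppe-miR398b_2ss10AC20TG from PF_L to PF_Z, and the overlapping pair mdm-MIR397b-p3_1 and mdm-MIR397b-p3_2 from PF_Z to PF_D. The shares of all sequences called by edgeR and DESeq2 are not given here, so these counts stand without a background and are not read as a result about the members.

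Sequences outside the copper families were ranked by how closely their profile followed that of the most abundant copper sequence, as the root mean square difference of centred log2 values over the 9 libraries, among 156 with a mean of at least 50. Among their names, mtr stands for barrel medic, gra for a wild cotton, osa for rice and PC for a predicted miRNA. Closest to ppe-miR397 were mtr-MIR2118-p5_2ss3AT18TA (0.213), mdm-miR827_1ss17GA (0.242) and PC-5p-14597_245 (0.247), against a median of 0.559. Closest to mdm-miR398b_1ss1TC were gra-MIR482-p3_1ss20TG (0.233), osa-miR171d-5p_2ss12CT21AG (0.236) and mdm-miR482b_2ss11CT20TC (0.261). Closest to mdm-miR408b_L-1R+1_1ss8AC were osa-miR171d-5p_2ss12CT21AG (0.263), PC-3p-64_35261 (0.287) and gra-MIR482-p3_1ss20TG (0.296). By the same measure the leading sequences of miR398 and miR408 lay 0.241 apart, those of miR397 and miR408 0.525 and those of miR397 and miR398 0.648. The leading sequence is an opposite strand in miR408 but a guide strand in miR397 and miR398. It lay 0.416 from the miR408 guide mdm-miR408a_L-1R+1, whose distance to the other families was not measured.

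Other families that answer to nutrients in other plants were counted for comparison: miR169 (nitrogen), miR395 (sulfate), and miR399, miR827 and miR2111 (phosphate). miR1444, which in poplar acts on copper-containing polyphenol oxidases, was on the list but was not analysed here. From PF_L to PF_D, 3 of the 5 tested rose as deposited, where 18.7% of all 139 families were called higher. The log2 fold changes were 1.61 for miR169 (adjusted p = 0.000948, limma), 1.65 for miR395 (adjusted p = 0.00175) and 1.37 for miR399 (adjusted p = 0.00627). Other scalings are not given for these families. miR827 (0.49, adjusted p = 0.110) and miR2111 (0.60, adjusted p = 0.184) did not pass. The smallest adjusted p among them from PF_L to PF_Z was 0.135, for miR395 at a log2 fold change of 0.78, and from PF_Z to PF_D miR169 rose by 1.46 (adjusted p = 0.00681).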

How the data were processed

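Small RNA libraries of petals at 3 stages were made with a TruSeq kit and sequenced on a HiSeq instrument. The sources differ on the RNA extraction, with Trizol in the labels and CTAB in the methods. With ACGT101-miR the authors filtered out adapters, junk, repeats and common RNA families and compared the reads with miRBase and the Fragaria vesca genome. The values they deposited are a signal per miRNA and library, their normalized reads, and the formula is not given in the sources used here. Values were used as deposited after 173 fully repeated lines of 1876 had been left out. All per-sample columns belonged to the 9 libraries, and 0 were left unused.

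The most frequent value above 0 in a library was taken as 1 read. At a tolerance of 0.01 read, whole reads made up 66.1% to 70.5% of each library's values above 0, steps of 0.5 read included 98.4% to 99.5%, and the reads were rounded for edgeR 4.0.16 and DESeq2 1.42.0. Floors cover counting error only, because no molecular identifiers were used. The stage contrasts came from limma 3.58.1 (R 4.3.3), fitted to log2(value + 1) of the 9 libraries with a prior that depends on the mean. This scale understates changes of scarce sequences. The 1511 sequences and 139 families above 0 in at least 3 libraries were tested, two-sided, with Benjamini-Hochberg adjustment over all of them, and called under 0.05. Ratios of family totals were tested by exact permutation over the 3 stages, since 3 against 3 libraries cannot go below p = 0.10. All arrangements of the labels were enumerated directly, and scipy 1.17.1 gave the Benjamini-Hochberg adjustment over the pairs. The limma fit and the permutation test were tried on simulated data.

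Text names all family totals, all members with a mean of at least 5, called members, and the 3 closest outside profiles. The members, lists, strand groups and tests were chosen with earlier results of these data known. Alternatives covered the pseudocount, filter, scaling, tool, samples, strands and the family definition. Valid reads per library, used for 1 scaling, came from the study's supplement. The degradome and mRNA data were not analysed here. Fits with a strand alone, with the overlapping pair counted once, or without mdm-miR398a were added after seeing the data.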

Additional observations from a re-analysis of the deposited data

How the results depend on the processing

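From PF_L to PF_D the total of miR397 had a log2 fold change of 0.45 with equal library totals (adjusted p = 0.273). Over the libraries left out in turn it was 0.76 to 0.98, and the call was lost without PF_L replicate 3 (0.83, adjusted p = 0.0656). The total of miR398 was -0.73 with equal totals (adjusted p = 0.0234), 0.28 per valid read and 0.80 on the opposite strand alone (adjusted p = 0.0472), and its leave-one-out range was -0.55 to -0.19. The total of miR408 was -0.94 with equal totals (adjusted p = 0.0158), 0.0762 per valid read and -1.04 on the guide strand alone (adjusted p = 0.0396), with a leave-one-out range of -0.80 to -0.34 and a call without PF_D replicate 1. The opposite strand of miR398 reversed the change from PF_L to PF_Z (0.53). From PF_Z to PF_D miR398, at 0.03, turned to -0.37 with equal totals, -0.0353 with edgeR, -0.0329 for sequences aligned to the leading one and -0.0327 for the guide strand, with a leave-one-out range of -0.20 to 0.35. There miR408, at 0.19, turned to -0.22 with equal totals and -0.15 on the guide strand, with a leave-one-out range of -0.0857 to 0.37. Per valid read mdm-miR398b_1ss1TC (0.25), ppe-miR398a-3p_1ss20TG (0.0249) and mdm-miR408b_L-1R+1_1ss8AC (0.43) reversed from PF_L to PF_D.

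Leaving out single libraries gave 2 to 8 called members from PF_L to PF_D and 0 to 1 in each other comparison. From PF_L to PF_Z edgeR called 1 and DESeq2 2 members. From PF_Z to PF_D a mean of at least 5, the valid reads and DESeq2 each gave 2, and edgeR gave 1. The difference of the log2 ratio of miR398 over miR408 between PF_D and PF_L was -0.40 for aligned sequences, -0.18 for the most abundant ones and 0.97 on the opposite strand (adjusted exact p = 0.0214), with a leave-one-out range of 0.06 to 0.28. That of miR397 over miR408 was 1.37 on the opposite strand (adjusted exact p = 0.0214), with a leave-one-out range of 1.28 to 1.55. For miR397 over miR398 the opposite strand gave 0.40 (adjusted exact p = 0.243). No ratio of guide strands passed. They gave 1.82 for miR397 over miR408 (adjusted exact p = 0.0643), 1.35 for miR397 over miR398 (0.166) and 0.46 for miR398 over miR408 (0.171). The cause of these changes was not tested.

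Replicate numbers showed no clear pairing of the libraries. Deviations of same-numbered libraries correlated between -0.10 and 0.28, and those of differently numbered libraries between -0.26 and 0.30. With 3 libraries per stage, these values cannot exclude a pairing. With the replicate number as a block, 7 members were called from PF_L to PF_D, mdm-miR398a being added (adjusted p = 0.0487), and the miR397 total stayed at 0.86 (adjusted p = 0.0156). Depth limits the 9 scarce sequences, which rest on at most 11 reads in a library.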
